A study of Homo sapiens with 183 samples.

Results

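KLF5 was knocked out in AsPC-1 cells in 2 RNA-seq experiments, which together hold 16 of the 183 samples of the series. The libraries were chosen by their labels alone. Experiment 3 has 4 sgKLF5 and 4 sgRosa libraries, and experiment 1 has 6 sgKLF5 and 2 sgRosa libraries. The experiment is read from the first number of each replicate label. AsPC-1 is an established human cell line of pancreatic ductal adenocarcinoma (PDAC) of the classical subtype. All groups are populations of AsPC-1 cells that stably carry Cas9 and were infected with an sgRNA vector, so the controls carry Cas9 and an sgRNA too, which targets the ROSA26 safe harbor locus. None of the groups is a single clone. RNA was taken on day 5. The study used 2 independent sgRNAs for each target, and which of them a library received is not given in the sources used here. A further 4 libraries of experiment 3 carry knockouts of genes that dividing cells need, 2 of sgCDK1 (the kinase that drives entry into mitosis) and 2 of sgRpa3 (RPA3, a subunit of the complex that coats single-stranded DNA at replication forks). The fit of experiment 3 also held its 4 sgRUVBL1 and 4 sgRUVBL2 libraries, knockouts of the ATPases RUVBL1 and RUVBL2. They share its estimate of spread and its filter on low genes. The study describes such libraries as biological replicates or independent knockout samples. The labels do not say how they were cultured, and the p-values below measure the spread between these libraries. Of 19875 genes in the table, 12224 reached a mean of 1 TPM (transcripts per 1000000 transcripts) and were tested in experiment 3, and 11856 were tested in experiment 1.

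KLF5 is a zinc finger transcription factor of the Krüppel-like family, whose members bind GC-rich sequences and CACCC boxes in promoters and enhancers. It is expressed in dividing epithelial cells, among them intestinal crypt cells and the basal layer of stratified epithelia. Classical PDAC cells keep an endodermal program, with HNF4A, FOXA and GATA6 as its transcription factors and mucins, trefoil factors and tetraspanins as its products, while basal-like PDAC cells express squamous keratins and laminins.

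The libraries were examined before the comparisons. Between 11525 and 12250 genes reached 1 TPM in each of the 16 libraries. All 7 markers of ductal epithelium and all 11 of the classical subtype reached 1 TPM in at least 1 library, whereas none of 5 endocrine markers did, and 1 of 5 acinar markers reached 1.08 TPM at most. The classical marker FOXA2 did so in sgKLF5 of experiment 1 alone (highest 1.99 TPM, median 0.0307 TPM). In the other groups FOXA2 did not exceed 0.0864 TPM. CD3E, the defining marker of T cells, was listed at 0 in every library, and COL1A1, that of fibroblasts, did not exceed 0.54 TPM. Other markers of these lists were detected, as 1 of 5 fibroblast markers reached 1 TPM, LUM, at 59.2 to 119 TPM, and 2 of 4 leukocyte markers did, CD68 at 85.2 to 179.7 TPM and PTPRC at no more than 1.68 TPM. A single library stood apart. Replicate 6 of sgKLF5 in experiment 1 held 87 genes at over 2 TPM and more than 5 times the highest of the other 5 replicates, against 0 or 1 such gene in each of the other 13 libraries that belong to a group of 4 or more. KRT5, a basal keratin, stood at 60.5 TPM there and at no more than 1.37 TPM in the other 15 libraries, and the 5 basal-like markers summed to 187 TPM, against 35.0 to 37.6 TPM in the sgRosa libraries of that experiment. TP63, another of these markers, did not exceed 1.15 TPM in any of the 16 libraries. TIMP3, MGP, LDHB and the endothelial gene ECSCR stood at 66.2, 40.6, 26.3 and 43.4 TPM there and at no more than 0.589, 0.442, 0.458 and 0.558 TPM in the others, and CDH5, an endothelial marker, was at 3.11 TPM. PECAM1 and VWF, the other endothelial markers of the list, did not exceed 0.318 and 0.161 TPM in the sgKLF5 libraries of experiment 1. The 87 genes summed to 921 TPM. Whether this library holds RNA of other cells was not tested. Of these, 30 were tested in experiment 1 and 1, ADIRF, passed the test. Without that replicate, 2823 genes passed in experiment 1 in place of 3075. In experiment 3, sgKLF5 replicates 1 and 4 resembled each other (r = 0.993 over genes), as did replicates 2 and 3 (r = 0.995). ACTB, the cytoskeletal beta-actin, stood at 3254 and 3191 TPM in the first pair and at 4697 and 4691 TPM in the second. What sets the pairs apart was not tested.

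The mRNA of the targeted gene itself was not lower. KLF5 stood at 140.4, 177, 193 and 161 TPM in the 4 sgKLF5 libraries of experiment 3 and at 159.6, 152, 162 and 148 TPM in the 4 sgRosa libraries. These ranges overlapped, and the difference was within the spread (log2 fold change 0.10 ± 0.09 (SE), adjusted p = 0.45, limma). In experiment 1 the sgKLF5 libraries gave 127 (lowest), 180.5 (median) and 208 (highest) TPM, and the sgRosa libraries 131 and 108 TPM. That difference passed the test (log2 fold change 0.53 ± 0.17 (SE), adjusted p = 0.046) although the ranges overlapped, and no longer passed when any 1 of replicates 1, 2, 3 or 5 of sgKLF5, or either sgRosa library, was left out (log2 fold change 0.39 to 0.67). Cas9 cutting leaves small insertions and deletions that need not change mRNA abundance, so these values are no check of the loss of the protein. Here and below, log2 fold changes are sgKLF5 - sgRosa on the log2(TPM + 1) scale, which understates changes of low genes. The data are from bulk RNA, in which fewer cells of one kind and less RNA per cell cannot be told apart.

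In experiment 3, 1888 genes were higher (15.4% of those tested) and 1507 lower (12.3%) in sgKLF5 cells. Of these, 200 and 239 differed by at least 2-fold. The knockout and control libraries did not overlap for 1717 of the higher and 1317 of the lower genes. The largest rises and falls of experiment 3 named below were chosen among genes without overlap, so its absence there is no further result. In experiment 1, 2030 genes were higher (17.1%) and 1045 lower (8.81%), of which 1982 and 1035 showed no overlap. The share of higher genes among those called was 55.6% in experiment 3 and 66.0% in experiment 1, and it became 50.1% and 50.2% after scaling libraries by a median of ratios. The median log2 fold change over all genes tested was 0.02 in experiment 3 and 0.08 in experiment 1. Over the 11717 genes tested in both experiments, which share no library, 1068 were higher in both (9.11%) and 711 lower in both (6.07%); 60.0% of these 1779 were higher, and 50.0% after scaling. Only 3 were higher in experiment 3 and lower in experiment 1, and 43 the reverse. The log2 fold changes had a Pearson r of 0.776 and a Spearman rho of 0.674 across these genes, which are not independent replicates. Of the genes lower in experiment 3 and tested in both, 48.7% were also lower in experiment 1, and 68.4% the other way round; for higher genes the shares were 57.6% and 53.7%. The 2 sgRosa libraries set the size of the experiment 1 list: 1942 genes passed without replicate 1 and 1556 without replicate 2. The count called in both experiments was 1102 without replicate 2. The plot of both experiments shows these genes by their log2 fold changes.

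**Figure D1:**
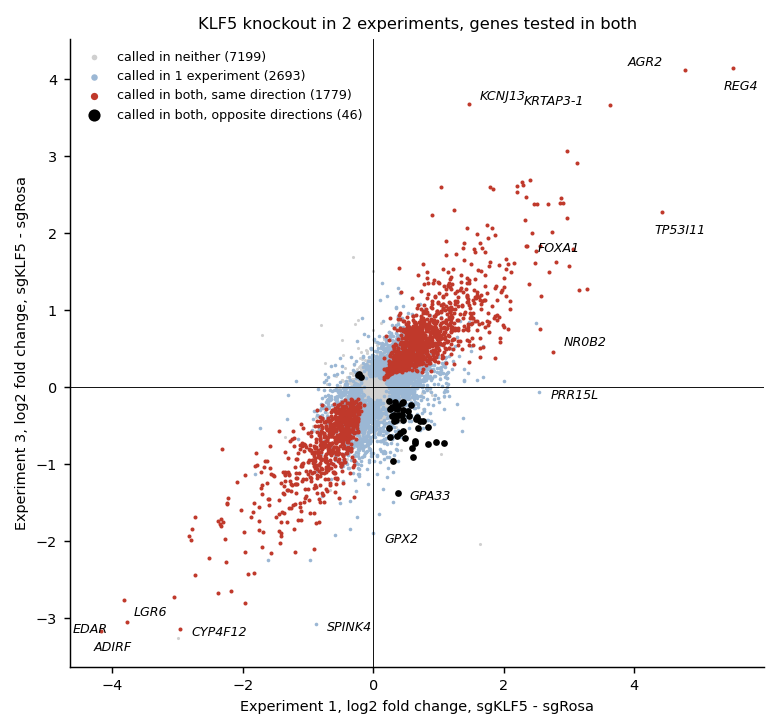
Log2 fold change of sgKLF5 - sgRosa, on the log2(TPM + 1) scale, in experiment 1 (x axis) and experiment 3 (y axis) for the 11717 genes tested in both. Each point is a gene: red, called in both in the same direction (1779); black, called in opposite directions (46); blue, called in 1 experiment (2693); grey, in neither (7199). Most red points lie near the diagonal, with REG4 and AGR2 at the upper right and EDAR, ADIRF and LGR6 at the lower left.

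The named genes that fell most included cell surface receptors, secreted protease inhibitors and metabolic enzymes of epithelia. SERPINB5, which encodes maspin, a serpin of clade B, stood at 20.8, 25.3, 39.7 and 48.9 TPM in the 4 sgKLF5 libraries of experiment 3 and at 121, 113, 109 and 92.5 TPM in the 4 sgRosa libraries. Every knockout library was below every control library. Its mean fell from 109 ± 12.2 to 33.7 ± 13 TPM (SD, n = 4 each; log2 fold change -1.74 ± 0.18 (SE), adjusted p = 4.4e-07). In experiment 1, SERPINB5 stood at 25.2 (lowest), 28.7 (median) and 39.4 (highest) TPM in the 6 sgKLF5 libraries and at 170.3 and 146 TPM in the sgRosa libraries (log2 fold change -2.39 ± 0.15 (SE), adjusted p = 1.5e-06). Replicate 6, which stood apart, was the highest of the knockouts. ADIRF, adipogenesis regulatory factor, gave 7.57, 11.8, 21.3 and 33.4 TPM in the knockouts of experiment 3 against 170.1, 161, 141 and 134 TPM in their controls (log2 fold change -3.16 ± 0.26 (SE), adjusted p = 2.6e-08). Its 6 knockouts of experiment 1 read 4.65 (lowest), 6.57 (median) and 38.9 (highest) TPM against 151 and 186 TPM, and the highest was again replicate 6 (log2 fold change -4.17 ± 0.60 (SE), adjusted p = 5.6e-04). MOGAT3, an acyltransferase of triglyceride synthesis, stood at 2.67, 6.08, 6.15 and 7.42 TPM against 28.1, 32.2, 26.7 and 29.96 TPM in experiment 3, with no overlap. ALS2CL read 2.59, 4.31, 5.84 and 3.55 TPM against 21.5, 21.5, 23.9 and 21.0 TPM, again without overlap. Both also fell in experiment 1 (log2 fold change -2.26 ± 0.11 and -2.52 ± 0.22, SE).

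Promoter sequence of these 4 genes is shown because the family's consensus, CCNCNCCC, was searched on both strands of the 250 bases before each gene start (RefSeq, GRCh38.p14). This consensus overlaps the GC box, CCCCGCCC, and the CACCC box, CCACACCC. Each line below gives 30 bases 5′ to 3′ on the strand of the gene, with the match nearest the start in capitals. In SERPINB5 the window is chr18:63476903-63476932 (plus strand), 44 bases before the start, the match is on the opposite strand, and 4 matches lie in the 250 bases. In ADIRF it is chr10:86968402-86968431 (plus strand), 69 bases before the start, 1 of 3 matches. In MOGAT3 it is chr7:101201106-101201135 (minus strand), 88 bases before the start, 1 of 3. In ALS2CL it is chr3:46693687-46693716 (minus strand), 26 bases before the start, on the opposite strand, 1 of 6.
SERPINB5: gggctggcagtGGGCGTGGcggtgctgccc
ADIRF: ccgccccgcgcCCTCTCCCctacgcggggc
MOGAT3: acgcctcccagCCCCACCCagcagccagcc
ALS2CL: ggcagggggcaGGGTGGGGgtgcgagcgag

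The consensus is common in promoters. A promoter entry was found for 9744 of the 12224 genes tested in experiment 3. CCNCNCCC was present in 52.4% of all 27305 promoters of the table, in 71.0% of the 9368 promoters of genes tested in both experiments, in 79.2% of the 554 of genes lower in both and in 72.1% of the 848 of genes higher in both. For the GC box the shares were 22.0%, 38.1%, 43.3% and 40.6%, and for the CACCC box 2.90%, 2.67%, 4.33% and 2.12%. CCNCNCCC was not in the windows of LGR6, FXYD3, MYO1A, DPEP1, AGR2, KRTAP3-1, CFI and ALDH1A1. CYP4F12, EDAR, MMP28, FGL1 and MYL9 had no entry. A match is a description of sequence, not a bound site.

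Receptors were among the largest falls of the named genes. EDAR, the ectodysplasin receptor of skin appendage development, stood at 1.6, 2.80, 5.91 and 7.50 TPM in the knockouts of experiment 3 and at 42.2, 42.0, 38.1 and 36.7 TPM in the controls. All knockouts were far below the controls (log2 fold change -3.05 ± 0.26 (SE), adjusted p = 3.7e-08), and in experiment 1 the 6 knockouts stood at 0.570 (lowest), 0.882 (median) and 1.1 (highest) TPM against 29.3 and 20.9 TPM (log2 fold change -3.78 ± 0.16 (SE), adjusted p = 2.0e-07). LGR6, a receptor for R-spondins that raises Wnt signalling, read 5.09, 11.3, 21.9 and 18.2 TPM against 97.1, 104, 87.8 and 74.0 TPM in experiment 3 (log2 fold change -2.76 ± 0.26 (SE), adjusted p = 1.6e-07). Its 4 knockout values were uneven, and none reached a control library. In experiment 1 it fell to 6.74 (lowest), 7.16 (median) and 11.8 (highest) TPM from 126 and 119 TPM (log2 fold change -3.82 ± 0.18 (SE), adjusted p = 2.8e-07). NRP2, a neuropilin that binds semaphorins and VEGF, fell from 16.3 ± 1.72 to 5.06 ± 0.824 TPM in experiment 3 (SD, n = 4 each; log2 fold change -1.52 ± 0.15, SE) and again in experiment 1 (log2 fold change -2.24).

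Some enzymes and structural proteins were among the named genes that fell as well. CYP4F12 and CYP4F3 encode P450 omega-hydroxylases of fatty acids. CYP4F12 stood at 0.760, 2.11, 5.11 and 3.59 TPM in the knockouts of experiment 3 and at 30.3, 27.4, 32.4 and 29.8 TPM in the controls (log2 fold change -3.14 ± 0.23 (SE), adjusted p = 5.1e-09; experiment 1, -2.96 ± 0.24). CYP4F3, a close relative whose reads may be split with it, stood at 0.448, 0.987, 1.71 and 2.41 against 14.1, 15.6, 15 and 14.7 TPM. MYO1A, the motor that ties brush border actin to the membrane, gave 7.22, 12.2, 19.1 and 19.1 TPM against 94.5, 98.9, 89.2 and 82.4 TPM (log2 fold change -2.67 ± 0.21 (SE), adjusted p = 1.2e-08; experiment 1, -2.37 ± 0.15). No knockout library of these 3 genes reached a control library in either experiment. MMP28, the metalloproteinase epilysin, fell from 77.0 ± 8.90 to 11.8 ± 3.68 TPM in experiment 3, and DPEP1, a membrane dipeptidase, from 23.8 ± 2.60 to 4.04 ± 2.41 TPM (SD, n = 4 each). FXYD3, a regulator of the sodium pump, fell from 15.4 ± 5.08 to 1.67 ± 1.57 TPM in experiment 3 and again in experiment 1 (log2 fold change -3.06). ALPPL2, a placental-like alkaline phosphatase whose current symbol is ALPG and which has near-identical relatives, stood at 0.618, 0.914, 1.19 and 0.898 against 11.9, 11.7, 14.2 and 18.0 TPM in experiment 3 and was too low to be tested in experiment 1 (0.0654 (lowest), 0.102 (median) and 0.399 (highest) TPM against 1.85 and 1.89 TPM). SPINK4, a protease inhibitor of goblet cells, was listed at 0, 1.25, 2.12 and 2.47 TPM in the knockouts of experiment 3 and at 12.5, 15.6, 26.5 and 18.4 TPM in the controls. It did not pass in experiment 1, and passed there without sgKLF5 replicate 6 (log2 fold change -1.05).

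**Figure D2:**
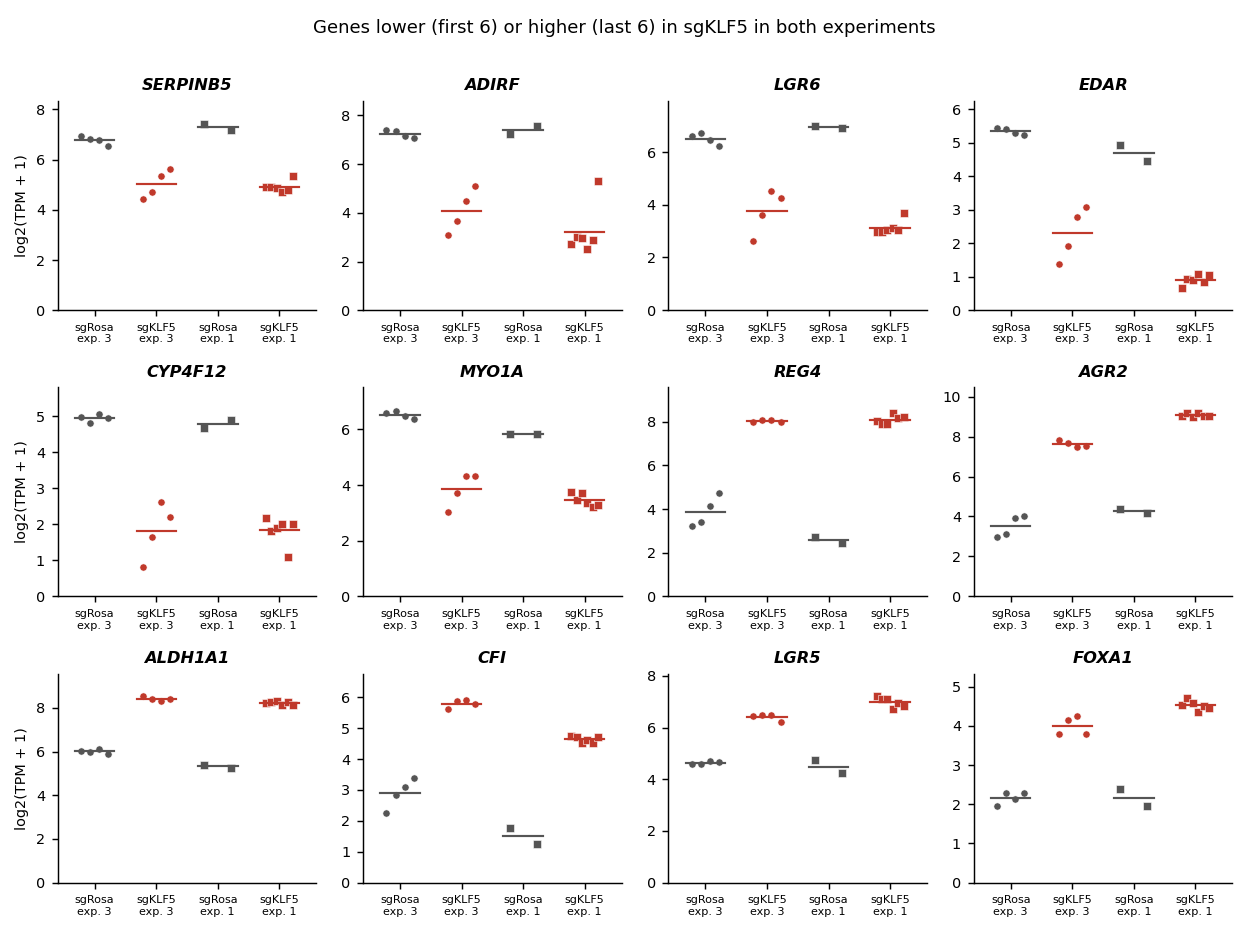
Level of 12 genes in each sgRosa (grey) and sgKLF5 (red) library of experiments 3 (circles) and 1 (squares), as log2(TPM + 1) from 0, with group means as lines. The 6 genes of SERPINB5 to MYO1A lie lower in every knockout library than in every control library of the same experiment, and the 6 of REG4 to FOXA1 lie higher; for SERPINB5, ADIRF and LGR6 the highest knockout of experiment 1 is replicate 6.

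The largest rise was that of a secreted protein. REG4, a secreted lectin of the Reg family found in intestinal endocrine and goblet cells, stood at 250.5, 269.9, 267 and 249 TPM in the knockouts of experiment 3 and at 8.32, 9.6, 16.5 and 25.9 TPM in the controls (log2 fold change 4.15 ± 0.33 (SE), adjusted p = 1.5e-08). In experiment 1 it reached 235 (lowest), 271 (median) and 337 (highest) TPM from 5.57 and 4.41 TPM (log2 fold change 5.51 ± 0.14 (SE), adjusted p = 2.2e-09). All 10 knockout libraries lay above all 6 control libraries. AGR2, a protein disulfide isomerase needed for mucin folding, read 225, 205, 174 and 185 TPM against 6.94, 7.60, 14 and 15 TPM in experiment 3 (log2 fold change 4.12 ± 0.29 (SE), adjusted p = 2.8e-09) and 507 (lowest), 526 (median) and 586 (highest) TPM against 20.1 and 17.2 TPM in experiment 1. CFI, a serine protease that restrains complement, stood at 47.7, 57.4, 59.4 and 54.4 TPM against 3.77, 6.15, 7.45 and 9.46 TPM in experiment 3, and its ranges did not overlap in either experiment. FGL1, a fibrinogen-like protein secreted by hepatocytes, rose from 1.71 ± 0.530 to 21.3 ± 1.21 TPM in experiment 3 (SD, n = 4 each; log2 fold change 3.07 ± 0.29 (SE), adjusted p = 1.1e-07) and by nearly the same amount in experiment 1 (log2 fold change 2.97 ± 0.10, SE).

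Other genes that rose encode a potassium channel, a collagen, a contractile protein and a retinoid enzyme. ALDH1A1, which makes retinoic acid from retinaldehyde, stood at 369, 333, 316 and 333 TPM against 64.6, 62.1, 67.4 and 58.8 TPM in experiment 3 (log2 fold change 2.4 ± 0.08 (SE), adjusted p = 5.6e-14) and at 281 (lowest), 299 (median) and 318 (highest) TPM against 41.1 and 36.8 TPM in experiment 1. KCNJ13, an inwardly rectifying potassium channel of transporting epithelia, rose from 0.328, 0.332, 0.315 and 0.244 TPM to 17.8, 18.3, 13.7 and 13.7 TPM in experiment 3. MYL9, the regulatory light chain of smooth muscle myosin, rose from 3.50 ± 1.61 to 23.1 ± 5.81 TPM in experiment 3 (SD, n = 4 each) and again in experiment 1 (log2 fold change 2.87). COL21A1, a fibril-associated collagen, rose from 1.25 ± 0.237 to 13.6 ± 1.84 TPM, MMP24, a membrane-type metalloproteinase, from 2.23 ± 0.513 to 18.7 ± 2.23 TPM, and SMIM3 from 3.18 ± 0.350 to 25.5 ± 0.993 TPM (SD, n = 4 each). All 3 also rose in experiment 1 (log2 fold change 2.4, 2.21 and 2.28). GPRC5B, an orphan receptor, and SLC38A11, of the amino acid transporter family, rose in both (log2 fold change 2.39 and 2.38 in experiment 3, 2.87 and 2.52 in experiment 1). KRTAP3-1, a hair keratin-associated protein, was listed at 0, 0, 0.379 and 0 TPM in the sgRosa libraries of experiment 3 and at 10.7, 16.5, 16.1 and 9.27 TPM in the knockouts. The promoters of GPRC5B and SLC38A11 also held 1 match each to the consensus, which are not shown. For comparison with the genes that fell, the consensus match of 2 genes that rose is given below in the same way: REG4 at chr1:119811649-119811678 (minus strand, 207 bases before the start, opposite strand, 1 match) and COL21A1 at chr6:56247610-56247639 (minus strand, 48 bases before the start, opposite strand, 1 of 2 matches).
REG4: gtttgcacacaGGGAGAGGttcttttcctg
COL21A1: ggaaagggggcGGGTGGGGagcgcgaacct

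Most of the genes already known as direct outputs of KLF5 in this line fell. The counts for this and the following lists stand beside 15.4% of all genes higher and 12.3% lower in experiment 3, and 17.1% higher and 8.81% lower in experiment 1. The study's list of direct targets in AsPC-1 rests on SLAM-seq, which measures newly made RNA after KLF5 is degraded, and on KLF5 ChIP-seq, in libraries other than these. Of its 68 members tested in experiment 3, 61 were lower and 0 higher, and the median log2 fold change was -0.91, beside 0.02 over all genes. In experiment 1, 57 of 68 were lower and 2 higher (IL22RA1 and KRT18; 1 when either sgRosa library was left out), with a median of -0.88, and 55 were lower in both experiments. EDAR, SERPINB5 and NRP2, above, belong to the list. TNS4, a focal adhesion tensin, fell from 32.9 ± 2.79 to 5.89 ± 3.2 TPM in experiment 3 (SD, n = 4 each; log2 fold change -2.42 ± 0.24 (SE), adjusted p = 1.9e-07) and again in experiment 1 (log2 fold change -1.93). SLC20A1, a phosphate transporter, fell in both experiments (log2 fold changes -2.08 and -1.70), as did FGF18, a fibroblast growth factor (-2.03 and -1.43). SLC2A1, the glucose transporter GLUT1, stood at 48.4, 66.7, 85.7 and 78.2 TPM against 195, 201, 212 and 199.9 TPM in experiment 3 (log2 fold change -1.55 ± 0.12 (SE), adjusted p = 1.4e-08). SULF2, an extracellular heparan sulfatase, read 119, 167, 188 and 161 TPM against 453, 483, 427 and 367 TPM (log2 fold change -1.45 ± 0.11 (SE), adjusted p = 9.2e-09). Both fell in experiment 1 too, without overlap (log2 fold change -1.76 and -1.59). The 7 members not called in experiment 3 were LAMA5, HES1, GLI2, KRT18, GPRC5A, NAB1 and MPRIP, with log2 fold changes from -0.78 to 0.22.

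KLF5 has relatives with overlapping binding preferences. Of 15 KLF and SP factors tested in experiment 3, 6 were lower and 1 higher, and in experiment 1, 1 of 16 was lower (KLF13) and 2 higher (KLF4 and KLF5 itself). After scaling, 5 were lower in experiment 1. KLF13 stood at 13.7, 18.8, 21.8 and 16.4 TPM against 40.2, 39.1, 39.1 and 34.4 TPM in experiment 3 (log2 fold change -1.09 ± 0.11 (SE), adjusted p = 2.4e-07), and fell again in experiment 1 (log2 fold change -0.96). KLF4, a factor of differentiated epithelial cells whose actions KLF5 often opposes, rose from 24.6, 27.3, 29.7 and 31.1 TPM to 44.4, 57.9, 57.9 and 42.7 TPM in experiment 3 (log2 fold change 0.82 ± 0.10 (SE), adjusted p = 3.5e-06), without overlap. In experiment 1 it rose from 90.5 and 89.2 TPM to 124 (lowest), 142 (median) and 162 (highest) TPM (log2 fold change 0.65 ± 0.09 (SE), adjusted p = 3.6e-04). SP2, SP6, SP1, KLF10 and KLF3 passed in experiment 3 and not in experiment 1 (log2 fold changes -0.65, -0.51, -0.42, -0.38 and -0.28 in experiment 3); the difference between the experiments did not pass for any of them.

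Endodermal transcription factors did not move as one group. Of 15 tested in experiment 3, 4 were higher (FOXA1, FOXA3, CDX2 and NR5A2) and 4 lower (HNF4A, NR1I2, PDX1 and SOX9), with a median log2 fold change of -0.15; in experiment 1, 6 were higher and 2 lower, with a median of 0.08. HNF4A, a nuclear receptor of the classical program, stood at 18.4, 27.2, 27.3 and 25.7 TPM against 70.8, 75.4, 71.2 and 63.6 TPM in experiment 3 (log2 fold change -1.49 ± 0.10 (SE), adjusted p = 2.7e-09). In experiment 1 it fell from 48.7 and 44.7 TPM to 19.7 (lowest), 21.7 (median) and 24.6 (highest) TPM (log2 fold change -1.06 ± 0.10 (SE), adjusted p = 2.6e-05). NR1I2, the xenobiotic sensor PXR, fell from 38.0 ± 0.831 to 15 ± 2.07 TPM in experiment 3 and again in experiment 1 (log2 fold change -0.88). FOXA1, a pioneer factor, went the other way: it stood at 12.8, 16.7, 18.2 and 12.9 TPM against 2.89, 3.84, 3.41 and 3.88 TPM in experiment 3 (log2 fold change 1.83 ± 0.16 (SE), adjusted p = 3.5e-08). In experiment 1 FOXA1 rose from 4.20 and 2.87 TPM to 19.4 (lowest), 21.9 (median) and 25.2 (highest) TPM (log2 fold change 2.36 ± 0.13 (SE), adjusted p = 1.0e-06). FOXA3, its relative, rose from 2.15 ± 0.352 to 8.79 ± 1.34 TPM in experiment 3 and again in experiment 1 (log2 fold change 1.79). CDX2, the intestinal homeobox factor, rose from 11 ± 0.681 to 19.9 ± 2.21 TPM in experiment 3 and again in experiment 1 (log2 fold change 1.21). PDX1 fell in experiment 3 and did not pass in experiment 1 (log2 fold change -0.58 ± 0.13 (SE), adjusted p = 0.0027; experiment 1, 0.08 ± 0.13), and NR5A2 rose in experiment 3 and did not pass in experiment 1 (0.63 ± 0.08 (SE), adjusted p = 4.1e-06; experiment 1, 0.01 ± 0.14). The difference between the experiments did not pass for PDX1 and passed for NR5A2, where it was lost when any 1 of 7 libraries was left out. SOX9, the ductal factor, passed narrowly in experiment 3 (-0.36 ± 0.13 (SE), adjusted p = 0.049) and did not when any 1 of sgKLF5 replicates 1 and 4 or the 4 sgRosa replicates was left out. GATA6 gave 0.06 in experiment 3 and 0.55 in experiment 1, where it passed.

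Some epithelial ETS and squamous factors were lower. ELF3, an epithelium-specific ETS factor and direct target, stood at 48.1, 69.8, 71.2 and 63.6 TPM against 164, 173, 152 and 163 TPM in experiment 3 (log2 fold change -1.37 ± 0.10 (SE), adjusted p = 2.7e-09), and fell again in experiment 1 (log2 fold change -0.86). It led a list of 12 ETS, grainyhead and splicing regulators of which 5 were lower and 0 higher in experiment 3, and 4 of 13 were lower and 1 higher in experiment 1. The count of experiment 3 was 3 without sgKLF5 replicate 1 or without sgRosa replicate 2. The others were OVOL2 (log2 fold change -0.85), ETS2 (-0.77), ETV5 (-0.48) and TFCP2L1 (-0.43). Of 9 basal and squamous factors, 4 were lower in both experiments: ZBED2, SOX15, TFAP2A and SNAI2. In experiment 1, 5 were lower in all, and 2 when either sgRosa library was left out. ZBED2, a repressor described in PDAC, fell from 13.6 ± 0.678 to 3.56 ± 1.67 TPM in experiment 3 (SD, n = 4 each; log2 fold change -1.75 ± 0.21 (SE), adjusted p = 2.3e-06) and again in experiment 1 (log2 fold change -2.31). TFAP2A gave log2 fold changes of -0.81 and -0.54, and did not pass in experiment 1 when either sgRosa library was left out. The 1 higher factor of the list in both experiments was KLF4.

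Most tested members of a list of cornified envelope and S100 genes fell, and no keratin passed as lower. The cornified envelope and S100 list had 11 of 14 members lower and 0 higher in experiment 3 (median log2 fold change -0.79), and 9 of 14 lower and 0 higher in experiment 1 (median -0.77). EVPL, envoplakin, fell from 45.7 ± 3.51 to 18.2 ± 4.89 TPM in experiment 3, and TGM2, tissue transglutaminase, from 224 ± 20.1 to 91.3 ± 9.46 TPM (SD, n = 4 each). Both fell in experiment 1 (log2 fold change -0.73 and -1.37). The calcium-binding S100A14 and S100A16 fell in experiment 3 (log2 fold changes -1.03 and -0.96) and in experiment 1 (-1.09 and -1.63). Kallikrein-related peptidases had 4 of 8 members lower in experiment 3, and 2 of 7 lower and 1 higher in experiment 1 (1 lower without sgRosa replicate 2). KLK10 stood at 165, 235, 253 and 214 TPM against 619, 675, 682 and 667 TPM there (log2 fold change -1.62 ± 0.13 (SE), adjusted p = 1.4e-08), and fell again in experiment 1 (log2 fold change -1.40). Keratins, by contrast, had 5 of 10 members higher and 0 lower in experiment 3 and 6 of 12 higher in experiment 1: KRT7, of simple ducts, rose by 1.03 and 1.48 on the log2 scale, KRT15 by 0.88 and 1.12, KRT16 by 0.63 and 1.11, KRT23 by 1.26 and 3.16, and KRT80 by 0.55 and 1.31. In replicate 6 of experiment 1 the squamous keratins stood apart, as given above. Without it, the count in experiment 1 was again 6 of the list, with log2 fold changes of 1.33 for KRT7 and 3.16 for KRT23.

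Matrix adhesion genes changed in both directions. Of 21 laminin-332, hemidesmosome and integrin genes in experiment 3, 8 were lower and 9 higher. Among the lower ones are parts of the hemidesmosome, which anchors epithelial cells to laminin-332. ITGB4 stood at 122, 243, 284 and 187 TPM against 677, 747, 635 and 598 TPM in experiment 3 (log2 fold change -1.73 ± 0.20 (SE), adjusted p = 1.9e-06), and PLEC, COL17A1, ITGA6, LAMA3 and LAMB3 fell with it (log2 fold changes -0.84, -0.57, -0.74, -0.92 and -0.83). DST, a plakin of the hemidesmosome, was higher (log2 fold change 0.90). The higher ones include LAMB1, a chain of other laminins, at 131, 165, 165 and 124 TPM against 63.6, 66.3, 58.6 and 55.1 TPM (log2 fold change 1.25 ± 0.10 (SE), adjusted p = 1.6e-08), and the integrin subunits ITGAV and ITGB6, which pair to bind and activate latent TGF-beta (log2 fold changes 1.08 and 0.73). In experiment 1, 7 were lower (4 without sgRosa replicate 1) and 3 higher (6 without sgKLF5 replicate 4), and those 3 were LAMB1, ITGAV and ITGB6 (log2 fold changes 0.74, 1.66 and 1.03); ITGAV did not pass without sgRosa replicate 2. The plasminogen system split as well, with 6 of 11 lower and 4 higher in experiment 3. PLAT, tissue plasminogen activator, stood at 184, 193, 200.3 and 193 TPM against 645, 662, 646 and 599.7 TPM (log2 fold change -1.72 ± 0.05 (SE), adjusted p = 5.4e-15). It fell again in experiment 1 (log2 fold change -1.16).

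**Figure D3:**
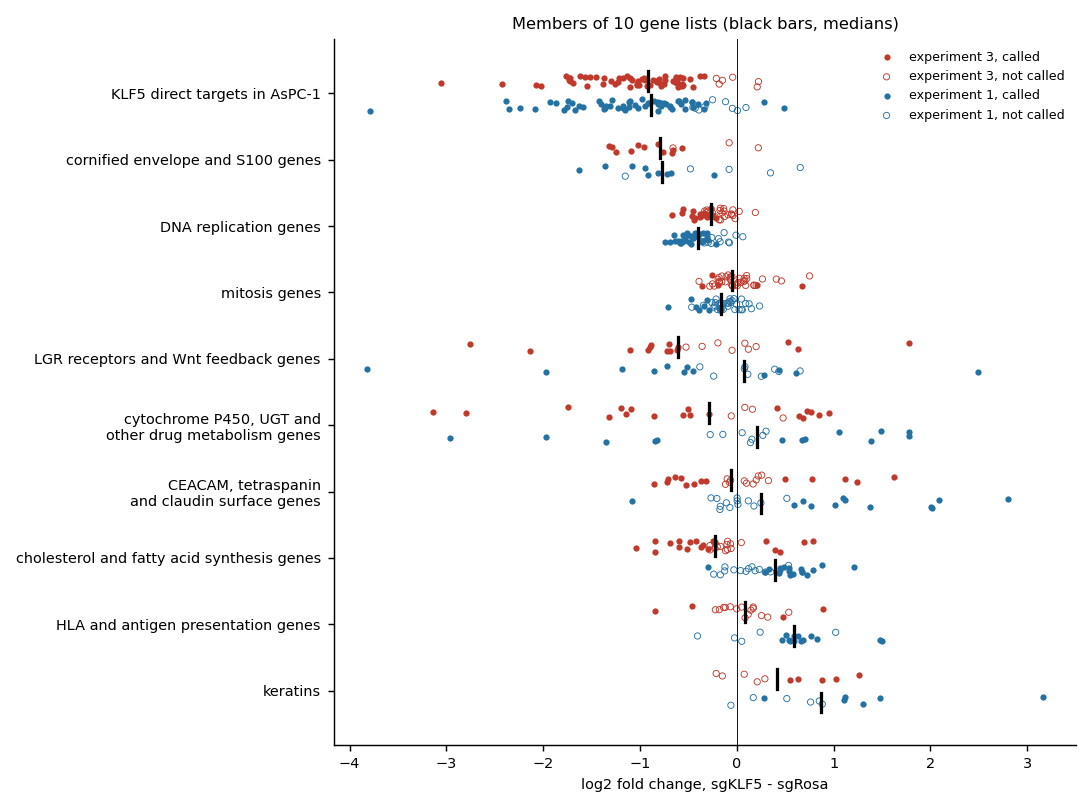
Log2 fold change of sgKLF5 - sgRosa for the members of 10 gene lists, in experiment 3 (red) and experiment 1 (blue). Each point is a gene, filled where it passed the test, and black bars are medians over the members tested. The direct targets lie almost wholly below 0 in both experiments (medians -0.91 and -0.88), and the cholesterol and fatty acid list lies below 0 in experiment 3 and above 0 in experiment 1 (medians -0.23 and 0.39).

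Signalling genes changed in both directions. Wnt signalling is tuned by the LGR receptors, which bind R-spondins, and by feedback genes that the pathway itself induces. Of 21 such genes tested in experiment 3, 11 were lower and 3 higher (median log2 fold change -0.61; 7 lower at a mean of at least 5 TPM), and in experiment 1, 8 of 21 were lower and 4 higher (5 lower without sgRosa replicate 1 and 4 without replicate 2; 1 or 2 higher without any 1 of sgKLF5 replicates 2, 3, 5 and 6 or sgRosa replicate 2). LGR5, the intestinal stem cell marker, moved against LGR6: it stood at 86.8, 87.7, 89.5 and 73.3 TPM against 23.3, 22.8, 25.0 and 24.6 TPM in experiment 3 (log2 fold change 1.77 ± 0.10 (SE), adjusted p = 1.1e-10), and rose from 26.1 and 17.7 TPM to 105 (lowest), 129 (median) and 147 (highest) TPM in experiment 1 (log2 fold change 2.50 ± 0.15 (SE), adjusted p = 1.4e-06). DACT1, a Wnt antagonist, fell from 18.8 ± 0.248 to 3.62 ± 1.13 TPM in experiment 3 (SD, n = 4 each) and again in experiment 1 (log2 fold change -1.97). RNF43 and AXIN2, negative feedback regulators, fell in experiment 3 (log2 fold changes -0.69 and -0.72). In experiment 1 RNF43 fell again (log2 fold change -0.46), and AXIN2 did not pass (-0.24). Of 10 EGF receptor family genes in experiment 3, 2 were lower (ERBB3 and ERBB2) and 1 higher (ERRFI1). ERBB2 stood at 21.3, 28.1, 30.4 and 23.2 TPM against 48.0, 49.2, 45.3 and 46.9 TPM (log2 fold change -0.87 ± 0.10 (SE), adjusted p = 2.1e-06). ERRFI1, a feedback inhibitor of these receptors, rose from 57.0 ± 3.3 to 132 ± 18.3 TPM (SD, n = 4 each; log2 fold change 1.19 ± 0.08 (SE), adjusted p = 3.1e-09) and again in experiment 1 (log2 fold change 1.43). EPHA2, an ephrin receptor and direct target, fell in both experiments, with a log2 fold change of -1.18 in each.

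TGF-beta and BMP response genes had 8 of 24 members higher and 4 lower in experiment 3. CTGF, a matricellular target of TGF-beta and YAP whose current symbol is CCN2, stood at 77.6, 104, 91.6 and 60.6 TPM against 10.7, 11.1, 13.7 and 17.2 TPM in experiment 3 (log2 fold change 2.57 ± 0.17 (SE), adjusted p = 1.6e-09) and rose from 103 and 87.5 TPM to 326 (lowest), 337 (median) and 378 (highest) TPM in experiment 1 (log2 fold change 1.83 ± 0.08 (SE), adjusted p = 1.5e-07). The ligand TGFB2 rose from 6.47 ± 0.689 to 24.4 ± 3.13 TPM in experiment 3 and again in experiment 1 (log2 fold change 1.57). ID1, an inhibitor of helix-loop-helix factors, fell from 143 ± 11.4 to 49.8 ± 9.81 TPM (SD, n = 4 each; log2 fold change -1.52 ± 0.10 (SE), adjusted p = 1.5e-09), while its relatives ID2 and ID3 rose by 0.57 and 1.15 on the log2 scale; the same signs passed in experiment 1 (-1.6, 0.99 and 1.45). Among chemokines and cytokines, 5 of 14 were higher and 1 lower in experiment 3. CXCL8, a neutrophil attractant, stood at 15.6, 14.3, 8.22 and 9.6 TPM against 3.55, 2.14, 3.31 and 2.41 TPM (log2 fold change 1.72 ± 0.21 (SE), adjusted p = 3.5e-06), and its relatives CXCL1 and CXCL5 rose by 2.61 and 1.54. All 3 rose in experiment 1 as well (log2 fold change 1.11, 1.04 and 1.06). The lower cytokine was LIF (log2 fold change -0.65, and -0.46 in experiment 1).

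DNA replication genes were lower by small amounts, and most mitosis genes did not pass. Of 43 DNA replication genes, 20 were lower and 0 higher in experiment 3 (median log2 fold change -0.27; 13 lower without sgKLF5 replicate 4, or without sgRosa replicate 1) and 30 were lower and 0 higher in experiment 1 (median -0.40; 15 without sgRosa replicate 1). CDT1, which loads the replicative helicase, stood at 13.6, 17.6, 17.8 and 16.2 TPM against 26.0, 27.3, 23 and 21.5 TPM in experiment 3 (log2 fold change -0.56 ± 0.13 (SE), adjusted p = 0.0033). MCM3, a subunit of that helicase, fell there too (log2 fold change -0.47), and both fell in experiment 1 (-0.64 and -0.50). Of 42 mitosis genes, 3 were lower (AURKB, UBE2C and KIF2C) and 2 higher (CKS2 and KIF18A) in experiment 3 (7.14% and 4.76%, both below the share over all genes), and 8 were lower in experiment 1 (16 after scaling by the median of ratios, and 3 when either sgRosa library was left out). KIF2C and CKS2 passed narrowly (log2 fold change -0.20 ± 0.07 (SE), adjusted p = 0.029, and 0.20 ± 0.07 (SE), adjusted p = 0.040) and each lost its call when 1 of several libraries was left out, namely sgKLF5 replicates 1 or 2 and sgRosa replicates 1 or 2 for KIF2C, and sgKLF5 replicates 1 or 4 and sgRosa replicates 2, 3 or 4 for CKS2. AURKB lost its call without sgRosa replicate 1. The count of lower mitosis genes in experiment 3 was 1 without sgRosa replicate 1, 8 without sgRosa replicate 4, 5 without sgKLF5 replicate 3 and 6 after scaling. A pair of inhibitors of cyclin-dependent kinases moved apart. CDKN1B, p27, stood at 65.3, 66.8, 67.8 and 69.0 TPM against 34.8, 32.3, 31.4 and 32.6 TPM in experiment 3 (log2 fold change 1.01 ± 0.08 (SE), adjusted p = 1.2e-08), and CDKN1A, p21, a direct target, at 13.7, 16.2, 15.7 and 13 TPM against 23.1, 24.0, 27.6 and 27.9 TPM (log2 fold change -0.77 ± 0.12 (SE), adjusted p = 5.7e-05). The same directions passed in experiment 1 (log2 fold change 1.14 and -0.60). CDC25B, a phosphatase that activates CDK1, fell in both (log2 fold changes -1.0 and -0.62), as did E2F1, the S phase factor (-0.70 and -0.73).

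The sgCDK1 and sgRpa3 libraries, whose sgRNAs target genes needed for division, were compared within the same experiment. CDK1 stood at 122 and 134 TPM in the sgCDK1 libraries and at 156, 141, 155 and 135 TPM in the sgRosa libraries (log2 fold change of sgCDK1 - sgRosa -0.19 ± 0.10 (SE), adjusted p = 0.20), and RPA3 at 29.6 and 32.1 TPM in the sgRpa3 libraries against 43.9, 39.2, 44.4 and 41.8 TPM (log2 fold change -0.44 ± 0.11 (SE), adjusted p = 0.066). RPA3 was lower in both sgRpa3 libraries than in all sgRosa libraries without passing the test, and mRNA is again no check of these knockouts. Against sgRosa, 2040 of 12224 genes passed in sgCDK1, 1253 of them higher and 787 lower. The sgCDK1 counts of gene lists below stand beside these. In sgRpa3, 80 genes passed, 78 of them higher, and 1081 had an unadjusted p under 0.05. Against the mean of both, 1903 genes were higher (15.6%) and 2334 lower (19.1%) in sgKLF5. This contrast and the one with sgRosa share the sgKLF5 libraries, so the values below are given side by side.

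The direct targets were lower against these knockouts too, 63 of 68 with a median log2 difference of -0.99. Between sgCDK1 and sgRosa 10 of the 68 were lower (14.7%) and 5 higher (7.35%), beside 787 lower and 1253 higher of all 12224 genes. SERPINB5 stood at 124 and 117 TPM in the sgCDK1 libraries and at 79.0 and 84.8 TPM in the sgRpa3 libraries, far above the sgKLF5 values (log2 difference -1.61 ± 0.18 (SE), adjusted p = 1.1e-06). LGR6 stood at 126 and 113 TPM in sgCDK1 and at 86.2 and 78.3 TPM in sgRpa3. HNF4A gave 80.7 and 80.1 TPM and 69.9 and 72.2 TPM, and REG4 8.04 and 9.18 TPM and 27.3 and 22.3 TPM. For these 4 genes the division-gene knockouts lay closer to the sgRosa libraries than to the sgKLF5 libraries. Replication and mitosis genes showed another order. CDT1 stood at 53.2 and 50.5 TPM in sgCDK1, 27.7 and 23.7 TPM in sgRpa3 and, as given above, 16.3 ± 1.92 TPM in sgKLF5. Of the 43 replication genes, 25 were higher and 1 lower in sgCDK1 than in sgRosa, and 33 were lower and 0 higher in sgKLF5 than in the mean of sgCDK1 and sgRpa3. Of the 42 mitosis genes, 38 were higher in sgCDK1 than in sgRosa, and 27 were lower in sgKLF5 than in the mean. That mean holds the rise in sgCDK1. Between sgRpa3 and sgRosa, 0 genes of either list passed. The median log2 fold change of the mitosis genes against sgRosa was 0.70 in sgCDK1, -0.13 in sgRpa3 and -0.05 in sgKLF5. For the replication genes it was 0.41, 0.03 and -0.27. UBE2C, the mitotic ubiquitin-conjugating enzyme, stood at 549 and 516 TPM in sgCDK1, 256 and 253 TPM in sgRpa3 and 251, 221, 237 and 228 TPM in sgKLF5, against 299, 302, 275 and 246 TPM in sgRosa. CDKN1A stood at 39.4 and 35.4 TPM in sgCDK1 and 56.7 and 50.3 TPM in sgRpa3, above all sgRosa libraries, and below them in sgKLF5 (log2 difference from the mean of both -1.55 ± 0.12 (SE), adjusted p = 9.3e-09). The largest differences from the division-gene knockouts that also passed against sgRosa included UNC5B, a netrin receptor, at 33.3 and 33.3 TPM in sgCDK1, 11.5 and 10.9 TPM in sgRpa3, 8.94 ± 1.47 TPM in sgRosa and 1.75 ± 0.664 TPM in sgKLF5, and CTGF, at 3.59 and 4.51 TPM in sgCDK1 and 20.6 and 18.4 TPM in sgRpa3. FOXA3 was an exception among the risers: it stood at 6.34 and 8.43 TPM in sgCDK1 and 5.57 and 4.77 TPM in sgRpa3, and sgKLF5 did not differ from them by the test (log2 difference 0.44 ± 0.18 (SE), adjusted p = 0.062).

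**Figure D4:**
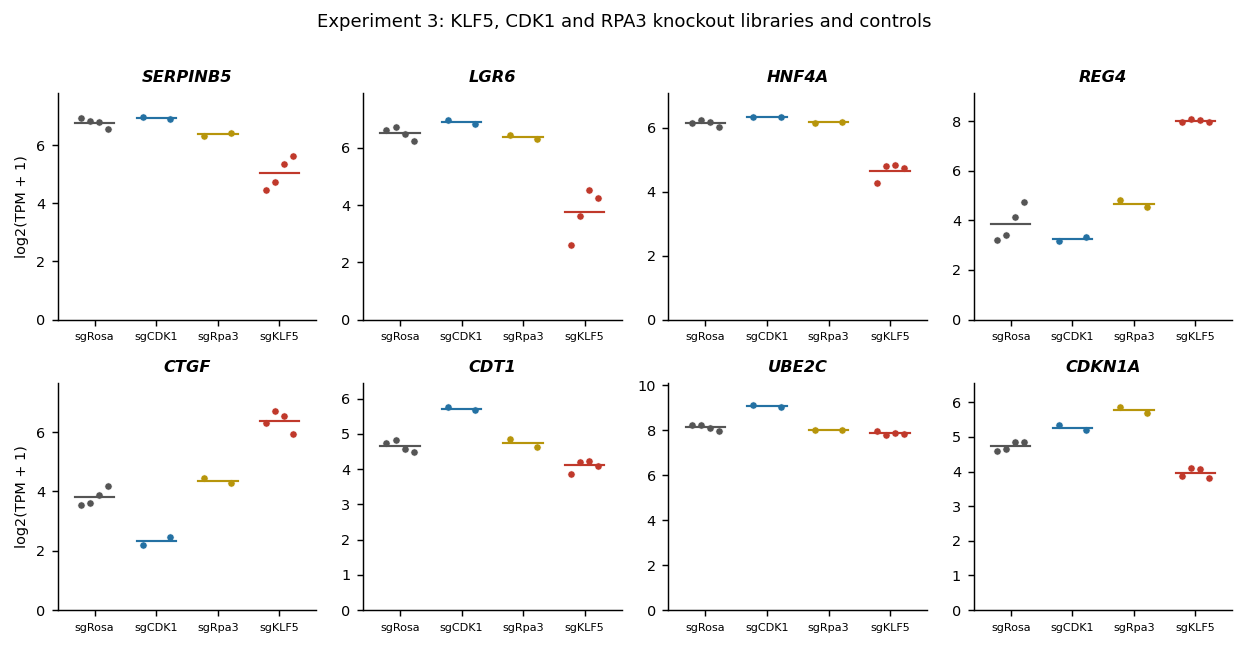
Level of 8 genes in each sgRosa (grey), sgCDK1 (blue), sgRpa3 (ochre) and sgKLF5 (red) library of experiment 3, as log2(TPM + 1) from 0, with group means as lines. SERPINB5, LGR6 and HNF4A are low, and REG4 high, in sgKLF5 alone, while CDT1 and UBE2C are highest in sgCDK1 and CDKN1A is highest in sgRpa3.

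The size of the knockout effect differed between the experiments for 550 of 11967 genes tested (4.6%), by a test of the difference itself in which experiment 1 and experiment 3 are fitted together. The effect was lower (more negative or less positive) in experiment 3 for 457 and higher for 93. Of the 550, 153 passed in both experiments in the same direction, 45 in opposite directions, 213 in experiment 1 alone, 126 in experiment 3 alone and 13 in neither. The sgRosa libraries of the experiments themselves differed in 5093 genes (42.6%), 3222 of them higher in experiment 3; 63.3% were higher, and 47.3% after scaling by the median of ratios, with a median over all genes of 0.12 on the log2 scale before scaling. Of the 550 genes, 465 were also called between the control libraries, and 378 of the 457 whose effect was lower in experiment 3 had higher controls there. For these genes a difference in the knockout effect and a difference in the control level cannot be told apart. Leaving out sgRosa replicate 1 of experiment 1 gave 352 genes and leaving out replicate 2 gave 200. Without replicate 2 the control libraries differed in 2670 genes.

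Single genes show both kinds of difference. PRR15L had the largest negative difference (log2 -2.61 ± 0.15 (SE), adjusted p = 1.8e-08): the sgKLF5 libraries of experiment 3 stood at 43.1, 49.0, 44.3 and 49.0 TPM beside 45.9, 44.8, 47.0 and 55.8 TPM in sgRosa, and in experiment 1 it rose from 2.28 and 3.06 TPM to 19.0 (lowest), 19.5 (median) and 22.9 (highest) TPM. NR0B2, the repressor SHP of bile acid signalling, rose little in experiment 3, from 55.3 ± 4.42 to 76.5 ± 7.11 TPM (SD, n = 4 each), and more in experiment 1, from 12.4 and 13.6 TPM to 83.1 (lowest), 95.6 (median) and 109 (highest) TPM (difference -2.30 ± 0.13 (SE), adjusted p = 1.8e-08). In both genes the control libraries of the experiments differed more than the knockout libraries did. TP53I11 rose to 31.5, 52.2, 45.2 and 26.0 TPM in experiment 3 and to 66.8 (lowest), 70.4 (median) and 78.4 (highest) TPM in experiment 1 (difference -2.16 ± 0.25 (SE), adjusted p = 6.4e-05), and CREB3L1, a membrane-bound transcription factor, differed by -2.01 ± 0.39 (SE), adjusted p = 0.0055. GPX2, a gastrointestinal glutathione peroxidase, fell from 15.8, 14.5, 18.7 and 21.9 TPM to 3.22, 4.97, 3.27 and 4.87 TPM in experiment 3. In experiment 1 its controls stood at 4.83 and 4.83 TPM and its knockouts at 3.87 (lowest), 4.65 (median) and 6.65 (highest) TPM, with overlap (difference -1.88 ± 0.25 (SE), adjusted p = 1.8e-04). GPA33, an intestinal surface antigen, went in opposite directions: it fell from 210.1, 231, 258 and 260.1 TPM to 69.5, 87.9, 106 and 109.7 TPM in experiment 3 and rose from 56.0 and 44.7 TPM to 61.2 (lowest), 65.4 (median) and 70.7 (highest) TPM in experiment 1 (difference -1.76 ± 0.18 (SE), adjusted p = 2.0e-05); the experiment 1 call was lost without sgRosa replicate 2. The largest positive differences were those of KCNJ13 (2.22 ± 0.26 (SE), adjusted p = 6.4e-05), TICAM2 (1.6 ± 0.44 (SE), adjusted p = 0.049), CXCL1 (1.57 ± 0.19 (SE), adjusted p = 8.1e-05), GDPD3 (1.52 ± 0.38 (SE), adjusted p = 0.027) and TUBA1A (1.34 ± 0.16 (SE), adjusted p = 8.1e-05), all on the log2 scale. TICAM2 passed narrowly, lost its call when any 1 of 12 libraries was left out, and passed in neither experiment on its own. KCNJ13, CXCL1 and TUBA1A, a tubulin, rose in both experiments and more in experiment 3, whereas GDPD3 fell in both and more in experiment 1. The GDPD3 difference lost its call without either 1 of the sgRosa libraries of experiment 1 or without sgRosa replicate 4 of experiment 3, and the fall of GDPD3 in experiment 3 lost its call without sgKLF5 replicate 4 or sgRosa replicates 2 or 3. The CREB3L1 difference was -1.99 and did not pass without sgRosa replicate 2 of experiment 1. REG4 and SPINK4 also passed (differences -1.37 ± 0.35 (SE), adjusted p = 0.032, and -2.20 ± 0.57 (SE), adjusted p = 0.034), and each lost its call when any 1 of several libraries was left out, either sgRosa library of experiment 1 among them.

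**Figure D5:**
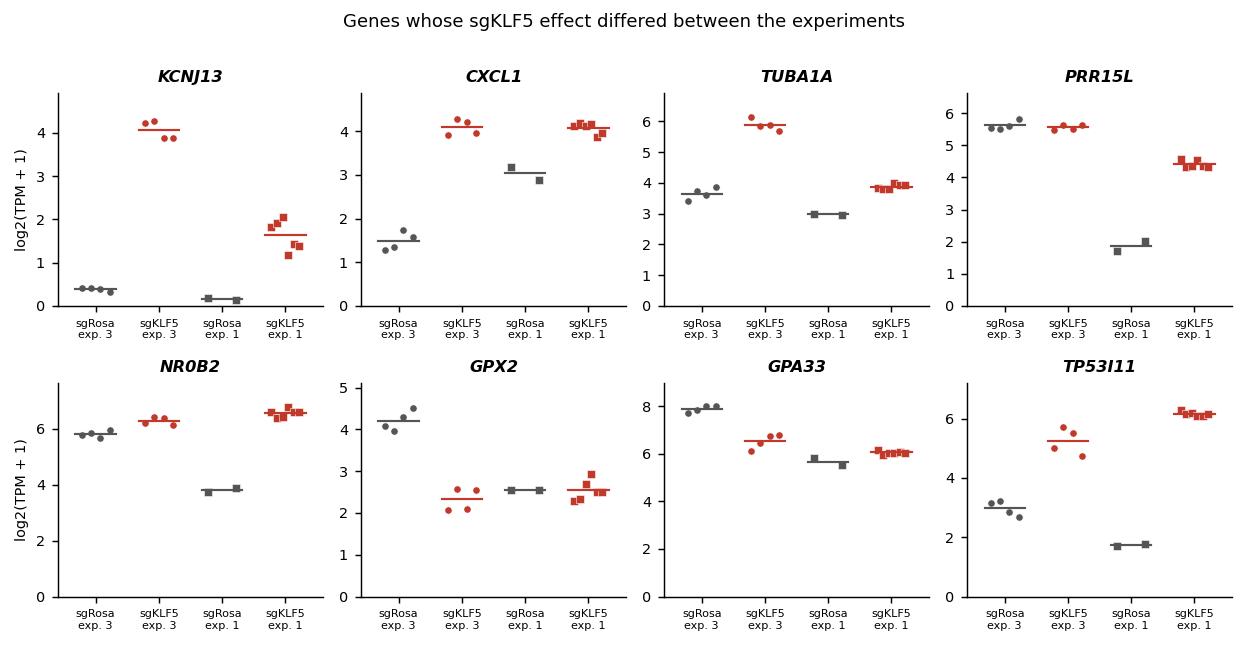
Level of 8 genes whose knockout effect differed between the experiments, in each sgRosa (grey) and sgKLF5 (red) library of experiments 3 (circles) and 1 (squares), as log2(TPM + 1) from 0, with group means as lines. The controls of PRR15L, NR0B2, GPX2 and GPA33 lie higher in experiment 3 than in experiment 1, and those of CXCL1 lower.

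Lipid synthesis genes differed between the experiments as a list. Of 32 cholesterol and fatty acid synthesis genes, 14 were lower and 5 higher in experiment 3 (median log2 fold change -0.23), and 1 was lower and 17 higher in experiment 1 (median 0.39; 6 higher without sgRosa replicate 2). The difference passed for 14, and in each of them the effect was lower in experiment 3. The controls of the experiments also differed over this list: 26 of the 32 were higher in the sgRosa libraries of experiment 3 than in those of experiment 1 and 0 lower (median 0.98, beside 0.12 over all genes), so the level of the controls and the effect of the knockout cannot be told apart here either. SREBF1, the transcription factor of fatty acid synthesis, stood at 19.1, 39.7, 42.0 and 22.3 TPM against 57.4, 60.8, 60.4 and 65.6 TPM in experiment 3 (log2 fold change -1.04 ± 0.22 (SE), adjusted p = 0.0015); replicates 1 and 4 were lower than replicates 2 and 3, as for ACTB. SCD, the stearoyl-CoA desaturase, fell from 299.7 ± 64.3 to 165 ± 26.0 TPM in experiment 3 (SD, n = 4 each; log2 fold change -0.85 ± 0.14 (SE), adjusted p = 1.6e-04). It did not pass in experiment 1 (log2 fold change -0.03 ± 0.10, SE). DHCR7, the last enzyme of cholesterol synthesis, did not pass in experiment 3 (-0.06) and rose in experiment 1 (0.88). TM7SF2, a sterol reductase, rose in both (log2 fold change 0.79 and 1.21), as did FADS1, ELOVL5, ELOVL6 and SC5D. In sgCDK1 cells 14 of the 32 were lower than in sgRosa (43.8%) and 0 higher, beside 787 lower and 1253 higher of all 12224 genes.

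Surface and antigen presentation genes differed in the same sense. Of 25 CEACAM, tetraspanin and claudin genes, 9 were lower and 5 higher in experiment 3, and 1 was lower and 11 higher in experiment 1. The difference passed for 11, and in each of them the effect was lower in experiment 3. In the sgRosa libraries 17 of the 25 were higher in experiment 3 and 4 lower. TSPAN8, a tetraspanin of the gut, rose in both: it stood at 6808, 6735, 6353 and 6861 TPM against 2021, 1892, 2212 and 2602 TPM in experiment 3, and at 4599 (lowest), 4728 (median) and 5099.6 (highest) TPM against 707 and 668 TPM in experiment 1 (difference -1.17 ± 0.11 (SE), adjusted p = 1.0e-05). CLDN3, a tight junction claudin, fell in experiment 3 and rose in experiment 1 (log2 fold changes -0.44 and 0.76), and CLDN1 passed in experiment 1 alone (0.08 and 2.01). Of the HLA and antigen presentation genes, 2 of 19 were higher (HLA-DMB among them) and 2 lower (NLRC5 and HLA-F) in experiment 3 (1 higher without sgKLF5 replicate 2 or 3), and 13 of 18 were higher in experiment 1 (6 without sgRosa replicate 1). The shares of experiment 3, 10.5% each way, lie below those over all genes, 15.4% and 12.3%. Reads of HLA genes may be split among near-identical copies. The difference passed for 4 of 19: PSMB8, HLA-E, B2M and CD74. In the sgRosa libraries 14 of these 19 were higher in experiment 3 and 0 lower (median 0.66, beside 0.12 over all genes). Among the drug metabolism genes below, 9 of 21 were higher in the sgRosa libraries of experiment 3 and 1 lower (median 0.63). For these lists too, control level and knockout effect cannot be told apart. Cytochrome P450 and other drug metabolism genes had 12 of 23 lower and 7 higher in experiment 3 (3 higher at a mean of at least 5 TPM), and 5 of 20 lower and 8 higher in experiment 1 (3 higher without sgRosa replicate 2). CYP3A5 fell from 245 ± 7.09 to 73.6 ± 13.6 TPM in experiment 3 (SD, n = 4 each; log2 fold change -1.74 ± 0.12 (SE), adjusted p = 1.8e-09) and again in experiment 1 (log2 fold change -0.83; difference -0.92 ± 0.19 (SE), adjusted p = 0.0069; without sgRosa replicate 2 of experiment 1 it was -0.83 and did not pass).

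Classical secreted proteins and the classical signature differed as well. Of 17 secreted proteins and mucins, 8 were lower and 3 higher in experiment 3, and of 18 in experiment 1, 4 were lower and 7 higher. Those higher in both were REG4, AGR2 and MUC13. The difference passed for 5 of 18, each lower in experiment 3. MUC1, a membrane mucin, fell in both (log2 fold changes -2.10 and -0.92). TFF2, a trefoil factor, was listed at 0.379, 0.955, 1.08 and 0 TPM against 6.97, 5.99, 6.19 and 5.97 TPM in experiment 3, and stood at 1.49 (lowest), 4.05 (median) and 25.6 (highest) TPM against 16.2 and 16.8 TPM in experiment 1, where the highest library, replicate 6, exceeded the controls; it did not pass there (log2 fold change -1.61 ± 0.67 (SE), adjusted p = 0.11) and passed without replicate 6 (log2 fold change -2.05). Of the Moffitt Classical genes, a published tumor signature, 71 of 151 were lower and 29 higher in experiment 3 (median log2 fold change -0.30), and 30 of 152 were lower and 59 higher in experiment 1 (median 0.19). In the sgRosa libraries 99 of 153 were higher in experiment 3 and 11 lower. The difference between experiments passed for 62 of 153, 61 of them lower in experiment 3 and 1 higher. Among them GJB1, a gap junction connexin, gave -1.64 in experiment 3 and 0.09 in experiment 1 on the log2 scale, and PPP1R14D -1.84 and -0.35. The Moffitt Basal-like genes differed for 5 of 118. In that list 41 of 115 were lower and 20 higher in experiment 3, and 37 of 115 were lower and 19 higher in experiment 1 (12 higher without sgRosa replicate 1 and 9 without replicate 2). TGFB2, SEMA3A and KRT7 were among its higher members, at log2 fold changes of 1.76, 1.36 and 1.03 in experiment 3, and TNS4, ZBED2 and SERPINB5, above, among its lower ones.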

How the data were processed

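Poly-A RNA-seq libraries were single-end. The authors quantified reads against hg38 with kallisto, summarised transcripts to genes with tximport and deposited TPM values. Their methods name a removal of low-abundance transcripts beside their own test of differences. The TPM values used here still hold genes listed at 0 in every library. They sum to the same total in every library, so that sequencing depth is unknown here and sets no interval. The deposited TPM table was used as it stands and no per-sample column was left unassigned (0 columns). Values were transformed as log2(TPM + 1), genes were kept if the fitted libraries averaged 1 TPM or more, and limma (version 3.58.1, R 4.3.3) was fitted with a mean-variance trend. P-values were adjusted by Benjamini-Hochberg over all genes tested, with a threshold of 0.05. Every adjusted p in the text is from limma. The experiment 3 fit held all AsPC-1 libraries of that experiment, sgRUVBL1 and sgRUVBL2 included, which share one estimate of spread. The experiment 1 fit held its 8 libraries. The difference between experiments was a contrast in a fit of the 4 groups. Descriptive values and figures were made in Python 3.11.15. The fits were tested on simulated data in which libraries vary independently. The resemblance of sgKLF5 libraries in pairs, seen in experiment 3, was not part of that simulation. Promoter sequences are from RefSeq (GRCh38.p14).

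The groups follow the labels. The members, gene lists and named genes were chosen with earlier results of these data known, so a list's counts are descriptions, to be read beside the share called among all genes. Genes were named by rule: KLF5 and SERPINB5, the 10 largest rises and 10 largest falls in experiment 3 with no overlap between libraries, the 10 and 10 in both experiments, the 5 and 5 that differed most between experiments, the 5 and 5 that differed most from the division-gene knockouts, up to 4 of each list, and any member that a count of 5 or fewer turns on. Alternatives were another pseudocount, other filters, scaling by the median of ratios, other libraries in the fit, a replicate block and each library left out in turn. The control contrast and the list counts under these settings were added after seeing the data. Results for a few of the genes that the rule names are not reported here. Samples of the series outside these fits are not analysed here, and no comparison of sgRUVBL1 or sgRUVBL2 is reported.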

Additional observations from a re-analysis of the deposited data

Results flagged for a closer look

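A single library held apart from the rest of its group was found in 16 of 336 groups of 4 or 6 libraries examined over 112 genes; chance gives about 1 in 20. Replicate 6 of sgKLF5 in experiment 1, which also held the basal keratins, accounted for 8 of them. It stood at 39.4 TPM for SERPINB5, 38.9 for ADIRF, 11.8 for LGR6, 14 for FXYD3 and 27.2 for MMP28, in each case above the other knockouts. It also stood highest at 15 TPM for GPRC5B, 25.6 for TFF2 and 19.5 for KRT7. The calls of SERPINB5, ADIRF, LGR6, FXYD3, MMP28, GPRC5B and KRT7 in experiment 1 passed with and without that replicate, and that of TFF2 passed without it but not with it.

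The other 8 came from 6 libraries. Replicate 3 of sgRosa in experiment 3 stood apart for KRTAP3-1 (0.379 TPM, the others being listed at 0), FXYD3 (22.9 TPM) and KIF18A (32.6 TPM). In experiment 1, sgKLF5 replicate 1 was high for CTGF (378 TPM), replicate 4 for CXCL8 (34.7 TPM) and replicate 5 for ALPPL2 (0.399 TPM). In experiment 3, sgKLF5 replicate 4 was low for LGR5 (73.3 TPM) and replicate 1 for HLA-DMB (1.1 TPM).

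The knockout effect differed between the experiments, by the limma contrast of both effects, for 550 genes, among them 26 of the named ones. The difference, experiment 3 - experiment 1 on the log2 scale, was positive for KCNJ13 (2.22), TICAM2 (1.6), CXCL1 (1.57), GDPD3 (1.52), TUBA1A (1.34) and NR5A2 (0.62). It was negative for PRR15L (-2.61), NR0B2 (-2.30), SPINK4 (-2.20), TP53I11 (-2.16), CREB3L1 (-2.01), KRT23 (-1.90), GPX2 (-1.88), GPA33 (-1.76), ALPPL2 (-1.64, and -0.74 without passing at a pseudocount of 0.1) and REG4 (-1.37). It was also negative for TSPAN8 (-1.17), CA12 (-1.04), CLDN2 (-0.97), CD74 (-0.97), CYP3A5 (-0.92), SCD (-0.82), ERBB3 (-0.72), LGR5 (-0.72), PLAT (-0.57) and ALDH1A1 (-0.51).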

How the results depend on the processing

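Leaving out 1 library gave 2718 to 3318 genes in experiment 3, 1556 to 3849 in experiment 1, 200 to 680 for the difference between experiments, 2670 to 5517 for the control libraries, 3463 to 4466 against the division-gene knockouts and 1102 to 2075 called in both experiments. For KLF5 mRNA against those knockouts it gave log2 fold changes of 0.12 to 0.27, past the threshold without sgKLF5 replicate 1. The lowest counts of experiment 1, of the difference, of the control libraries and of both experiments came without sgRosa replicate 2 of experiment 1, which leaves 1 control library that is assumed to vary like the others. With a replicate block, experiment 3 gave 3322 genes and experiment 1 gave 3866; libraries with the same number did not deviate together (r = -0.069 to 0.241 over 4 pairs in experiment 3 and -0.459 to 0.354 over 2 pairs in experiment 1), so the numbers were not used as pairs. Against sgCDK1 alone 3933 genes passed, and against sgRpa3 alone 3230. For named genes, 4342 of 4465 values kept direction and call when a library was left out, 96 lost the call and 27 gained one; under the other alternatives it was 2250 of 2296, with 26 lost and 20 gained, and none turned direction. Of the list counts, 133 of 1344 moved by over 1.5 times when a library was left out and 73 of 924 under the others. Besides those given with the results, calls lost in experiment 1 without sgRosa replicate 1 included ERBB2 and ETS2 (log2 fold change -0.42 and -0.52), and those lost without replicate 2 were UBE2C (-0.26) and ETS2 (-0.61). Without replicate 2, ALDH1A1, CA12, CLDN2, ERBB3, LGR5 and PLAT no longer differed between experiments by the test (-0.43, -0.82, -0.83, -0.60, -0.46 and -0.42). The difference also lost its call without any 1 of 7 libraries for NR5A2 (0.54 to 0.70), 4 for SCD (-0.75 to -0.67) and 11 for CD74 (-1.08 to -0.84). At a pseudocount of 0.1 it lost its call for ALPPL2 (-0.74), SPINK4, TICAM2 and GDPD3. Without the filter on low genes this held for REG4, SPINK4, TICAM2, GDPD3, SCD and CD74, and after scaling for REG4 and ALDH1A1. With all AsPC-1 libraries of both experiments fitted it held for REG4, SPINK4 and TICAM2. SOX9 in experiment 3 lost its call at that pseudocount and without the filter, and KLF5 in experiment 1 without the filter. TPM keeps no depth, so the precision of low genes cannot be set from counts.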

Other observations

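Gene groups that the comparisons above did not describe had some members called, beside 15.4% of all genes higher and 12.3% lower in experiment 3 and 17.1% and 8.81% in experiment 1. Of 23 NRF2-type antioxidant genes, 9 were higher and 5 lower in experiment 3 (3 lower without any 1 of sgKLF5 replicates 1 and 4 or sgRosa replicate 2). HMOX1, heme oxygenase, and TXNRD1, thioredoxin reductase, rose (log2 fold changes 1.09 and 0.78; 1.17 and 0.70 in experiment 1), and FTH1, the ferritin heavy chain, fell (-1.11 and -0.35). Of 34 glycolysis and hypoxia genes, 12 were higher and 6 lower. CA12 and CA9, carbonic anhydrases, rose (1.34 and 0.87), and NDRG1, SLC16A3, a lactate transporter, and PKM, pyruvate kinase, fell (-0.92, -0.85 and -0.81). These directions passed in experiment 1 too. Of 22 p53 targets, 6 were lower and 3 higher in experiment 3; PMAIP1 and PHLDA3 fell (-0.79 and -0.70), and TP53INP1 rose (0.71). Of 37 interferon-stimulated genes, 4 were higher and 6 lower in experiment 3, shares of 10.8% and 16.2% that lie near those over all genes (2 higher without any 1 of sgKLF5 replicates 1 and 2 or sgRosa replicates 1 and 2, and 3 lower without either of those sgRosa replicates), with BST2, tetherin, at 1.08 and OAS1 at -0.92; 10 were higher and 1 lower in experiment 1 (5 higher when either sgRosa library was left out, and 2 lower without replicate 2 and after scaling).

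Guidance, death and feedback genes had members called in both directions. Of 26 TNF receptor and semaphorin genes, 6 were higher and 8 lower in experiment 3: SEMA3A, a secreted repellent, rose (1.36; 1.47 in experiment 1) and SEMA3B, its relative, fell (-1.27 and -1.71). The receptors NRP1 and NRP2 moved apart (0.56 and -1.52; 0.58 and -2.24). Of 29 MAPK feedback and ephrin genes, 9 were lower and 2 higher (4 or 5 higher without sgKLF5 replicate 1 or 4 or sgRosa replicate 4), with SPRY4 at -0.84 and its relative SPRY1 at 0.83. Of 12 AP-1 and immediate early factors, 3 were higher (JUN, FOSL2 and BATF; 0.91, 0.70 and 0.58) and 3 lower (JUNB, FOS and IER2; -0.93, -0.90 and -0.35; 5 lower without sgKLF5 replicate 2 and after scaling). Of 9 Notch genes, JAG1, a ligand, rose (0.84; 2 higher without sgKLF5 replicate 1 and 3 without replicate 4) and NOTCH1, NRARP and LFNG fell (-0.75, -0.52 and -0.50); 1 of the 3 was lower without any 1 of sgKLF5 replicates 1 and 4 or sgRosa replicates 1 and 2. Of 16 NF-kappaB response genes, 4 were higher and 2 lower, (4 lower after scaling), with ICAM1 at 1.1 and TNFAIP2 at -1.06. Of 20 BCL2 family genes and caspases, 6 were lower, BCL2L1 among them (-0.73), and 4 higher (2 without sgKLF5 replicate 2 or sgRosa replicate 1). Of 11 mesenchymal genes, 4 were lower and 1 higher, TAGLN (1.42 and 1.44 in experiment 1), a smooth muscle actin-binding protein. Of 31 MYC partner and ribosome biogenesis genes, 2 were higher (1 without any 1 of sgRosa replicates 1, 2 and 4) and 1 lower (2 without sgKLF5 replicate 1). Of 26 genes of the RUVBL1 and RUVBL2 complexes, 2 were higher and 2 lower (4 after scaling and 5 without sgKLF5 replicate 3). The shares of these last 2 lists (6.45% and 3.23%, and 7.69% each way) lie below those over all genes in both directions.

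Lists of surface and junction genes of the gut and skin also had members called. Of 23 brush border and intestinal genes, 8 were lower and 4 higher in experiment 3 (2 higher at a mean of at least 5 TPM). EPS8L3, of the EPS8 family, fell (-1.07; -0.69 in experiment 1), and GUCY2C, the guanylin receptor, PDZK1, a scaffold of transporters, and SLC40A1, the iron exporter ferroportin, rose (1.0, 0.68 and 0.65; 0.77, 1.03 and 1.51). Of 10 desmosome genes, DSG3, a desmosomal cadherin, PERP and PKP3 fell (-1.14, -0.64 and -0.57; -1.97, -0.56 and -0.60), and PKP4 rose (0.32; 2 higher without sgKLF5 replicate 1). Of 17 heparan sulfate proteoglycan, sulfatase and metalloproteinase genes, 8 were lower and 3 higher. SDC1, the proteoglycan syndecan-1, and TIMP2, an inhibitor of metalloproteinases, fell (-0.84 and -1.1; -0.87 and -1.36). Of 5 clade B serpins, SERPINB8 and SERPINB6 fell with SERPINB5 (-0.50 and -0.16). In experiment 1 SERPINB6 fell and SERPINB8 did not pass (-0.43 and -0.45). Of 29 cyclins, CDKs and their inhibitors, 6 were lower and 2 higher, the latter being CDKN1B and CDK4 (1 higher after scaling and without sgKLF5 replicate 1 or sgRosa replicate 2). Of 23 stress response genes, 4 were higher and 3 lower (1 lower without any 1 of sgKLF5 replicates 1 and 4 or sgRosa replicates 2 and 3), with SESN2 at 0.54 and PPP1R15A at -0.50.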
